A study of Mus musculus with 6 samples.

Results

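The mRNA expression of 9 genes that bind, take up, make, clear or sense retinoids was examined in mouse lung, out of 56262 genes in the count table. The 9 genes are Rbp7, Rbp4, Stra6, Crabp1, Aldh1a1, Aldh1a2, Dhrs3, Cyp26b1 and Rarb, and they were chosen by their role with the fold changes of the same comparison known. Their values are therefore given as a description, without a p-value. Whether the fit across all genes called a gene is part of that description and supports nothing about the set. The other gene lists used below were also chosen with earlier results of these data known. Calls and adjusted p-values of their genes are likewise a description and support nothing about the lists. Lung tissue of 3 R/R mice and 3 WT littermates was compared, all 8 weeks of age and without treatment. Which part of the lung was taken is not stated. R/R mice are homozygous for the K329R and K332R changes in RBM47, an RNA-binding protein, which were made by CRISPR/Cas genome engineering on the C57BL/6 background. WT mice carry neither change. The alteration is in the germ line, so every cell type of the lung carries it. Lung tissue is a mixture of cell types, and fewer cells of a type and less RNA per cell cannot be told apart in it.

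Retinol (vitamin A) travels in plasma bound to RBP4 and is held inside cells by small binding proteins. It is stored as retinyl esters or oxidised through retinal to retinoic acid, which activates nuclear receptors of the RAR and RXR families and is then cleared by enzymes of the CYP26 family. In lung, retinoic acid is known for its part in the formation of alveoli, and retinyl esters are stored by lipid-laden fibroblasts.

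Each library held 16501092 to 18141067 counted read pairs. Values are read pairs relative to library size (CPM), scaled by the trimmed mean of M-values (TMM), in which 1 read pair was worth 0.0551 to 0.0606 CPM. The transcripts of alveolar type 2 cells (Sftpc), club cells (Scgb1a1), alveolar type 1 cells (Ager) and endothelium (Pecam1) were abundant in all 6 lungs, at 874 CPM or more. Rbm47 itself stood at 33.4 ± 0.709 CPM with R/R and 31.2 ± 2.89 CPM with WT genotype (mean ± SD, n = 3), and its counts do not show which codons were present. Of 14 genes of adipose tissue, 6 (Adipoq, Car3, Cfd, Lep, Plin1 and Retn) were higher in R/R 3 and WT 3 than in each of the other 4 lungs, and the other 8 were not. Adipoq, the adipose hormone adiponectin, stood at 0.588 and 0.994 CPM in these lungs and at 0 elsewhere.

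Of the 9 genes, 8 passed the filter on low counts and Stra6 did not. In the fit across all genes (edgeR's quasi-likelihood test, adjusted p threshold 0.05), 2 of the 8 were among the called genes, Rbp7 with higher and Crabp1 with lower values in R/R lungs. A total of 300 of 17120 tested genes (1.75%) were called. In the higher direction 0.648% of tested genes were called, and in the lower direction 1.1%. The values of the 3 R/R lungs lay entirely above those of the 3 WT lungs for Rbp7 and Aldh1a1, which was so for 9.21% of all tested genes, and entirely below for Crabp1, as for 9.47%. Since the genes were chosen with this comparison in view, nothing is read from these calls and shares. The median log2 fold change of the 8 genes was 0.11, beside 0.00 over all tested genes.

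**Figure D1:**
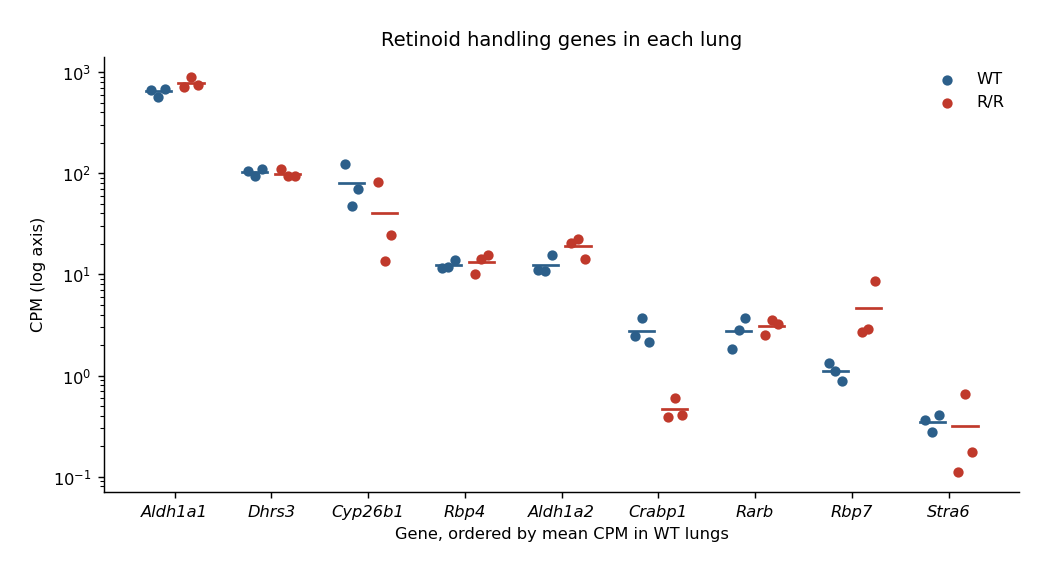
Level of each of the 9 genes in every lung, in CPM on a log axis, with WT lungs in blue and R/R lungs in red. Points are single lungs (replicates 1 to 3 from left to right) and short lines are group means. The groups are apart for Rbp7, Crabp1 and, by a small margin, Aldh1a1, and they overlap for the other 6 genes.

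The carriers came first. Rbp7 encodes a retinol-binding protein of the cell interior, known from adipose and capillary endothelial cells and as a target of the fat cell regulator PPARG. Its level was 2.72, 2.87 and 8.53 CPM in R/R lungs 1, 2 and 3, and 1.33, 1.10 and 0.877 CPM in WT lungs 1, 2 and 3. Each of the R/R lungs was above each of the WT lungs, and R/R 3 stood apart from the other R/R lungs at 145 read pairs against 49 and 48. The log2 fold change was 2.08 ± 0.45 (SE), a ratio of mean CPM of 4.26. Without R/R 3 the log2 fold change was 1.33 and the gene was not called. Leaving out R/R 1 kept the call, and leaving out any one of the other 5 lungs ended it, with log2 fold changes between 1.33 and 2.36. Of the 8 alternative settings 7 called it, and limma-voom did not. Most of the 7 changed only the scaling or the filter of the same edgeR fit and are not independent of it.

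R/R 3, the lung with the most Rbp7, was thus among those with Adipoq. WT 3 held more Adipoq and had the lowest Rbp7 of all 6 lungs. Cfd, the adipose protease adipsin, stood at 8.47 CPM in R/R 3 and 8.65 CPM in WT 3, and at 1.61 CPM or less elsewhere. Car3, a carbonic anhydrase abundant in fat, stood at 4.94 and 6.49 CPM in the same lungs. Without both of these lungs, an alternative chosen after seeing the data, the log2 fold change of Rbp7 was 1.19, with no call. The part of fat in the Rbp7 values was not tested. The summed level of the 14 adipose genes was 88.2 to 116 CPM in the R/R group, against 93.2 to 141 CPM in WT. WT 1 (132 CPM) was above R/R 3 (116 CPM) in this sum. Most of it in WT 1 was Lipe, at 76.3 CPM, while Adipoq was at 0 and Cfd at 0.121 CPM there. The sum thus does not follow Adipoq, Cfd and Car3 over the lungs. Beside 1.75% of all tested genes, 1 of the 6 tested genes of the list was called. It was Adrb3, the fat cell beta-adrenergic receptor, which was lower in R/R lungs (log2 fold change -0.86 ± 0.14, adjusted p = 0.0131 by edgeR's quasi-likelihood test), a call lost without R/R 2, R/R 3 or WT 1.

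Genes tied to PPARG or to capillary endothelium, where Rbp7 is known to be made, were examined beside it. None of the 14 tested PPARG target genes was called, and their median log2 fold change was 0.08, with 8 positive and 6 negative. An unadjusted p under 0.05 was found for 4 of them, and for 2433 of all 17120 tested genes. Pparg itself was not called (0.42 ± 0.13, adjusted p = 0.154). Its R/R lungs were all above its WT lungs, as for 9.21% of tested genes. The members with the most counts were Cd36, a fatty acid transporter (0.15 ± 0.07, adjusted p = 0.401), and Lpl, lipoprotein lipase (0.26 ± 0.08, adjusted p = 0.161). Of the 10 genes of the general capillary, 1 was called, the matrix gene Hmcn1 (-0.36 ± 0.08, adjusted p = 0.0491), with a median of 0.08. The most counted were Plvap, a protein of capillary fenestrae (0.21 ± 0.07, adjusted p = 0.199), and Cd93, a membrane lectin (-0.35 ± 0.08, adjusted p = 0.0529). Of the 10 genes of the aerocyte, the gas-exchange capillary cell, 1 was called, the peptide ligand Apln (-0.54 ± 0.08, adjusted p = 0.00893). Their median was -0.10, and 2 had a positive and 8 a negative log2 fold change. In 4 of the 10 the R/R lungs lay entirely below the WT lungs, as for 9.47% of tested genes. The summed level of the 10 genes was 3656 to 3945 CPM in the R/R group, against 4031 to 4272 CPM in WT. The most counted were Emp2, a membrane protein (-0.08 ± 0.07, adjusted p = 0.715), and Kdr, the VEGF receptor (-0.11 ± 0.06, adjusted p = 0.483). None of the 13 genes of endothelium in general was called, with a median of -0.04. All adjusted p-values are from edgeR's quasi-likelihood test, which called 1.75% of all tested genes. The call of Apln held without each lung in turn, and that of Hmcn1 held only without WT 3 and under 4 of the 8 alternative settings.

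**Figure D2:**
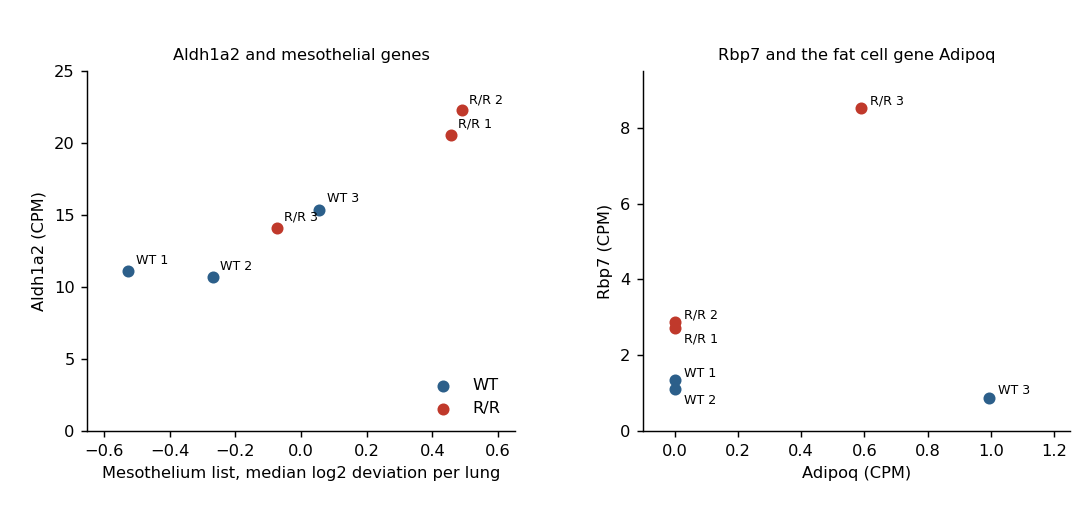
Left, level of Aldh1a2 (CPM) against the median deviation of the 12 mesothelial genes from their mean over the 6 lungs (log2), 1 point per lung; the highest values on both axes are those of R/R 1 and R/R 2. Right, level of Rbp7 against the fat cell gene Adipoq (both CPM), where R/R 3 and WT 3 hold Adipoq and stand at 8.53 and 0.877 CPM of Rbp7.

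Rbp7 lies at chr4:149449687-149454978 on the minus strand (GRCm38), and its 718 exon bases overlap no other annotated gene. Of the 17 other genes within 250 kb, 10 were tested and none was called by edgeR's quasi-likelihood test, with log2 fold changes from -0.51 to 0.04 and a lowest adjusted p of 0.400. The nearest was the pseudogene Trmt112-ps2, 2351 bases away (0.02 ± 0.23). Ube4b, a ubiquitin ligase gene, lies 22938 bases away (0.03 ± 0.07), and Nmnat1, which makes NAD in the nucleus, 12594 bases away (-0.02 ± 0.16). The other tested neighbours were Lzic, Gm13071, Ctnnbip1, Clstn1, Pik3cd, Ube4bos3 and Kif1b. Those under the filter were Ube4bos1, Ube4bos2, Tmem274, Gm24381, Mir5616, Gm13066 and Mir7023.

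**Figure D3:**
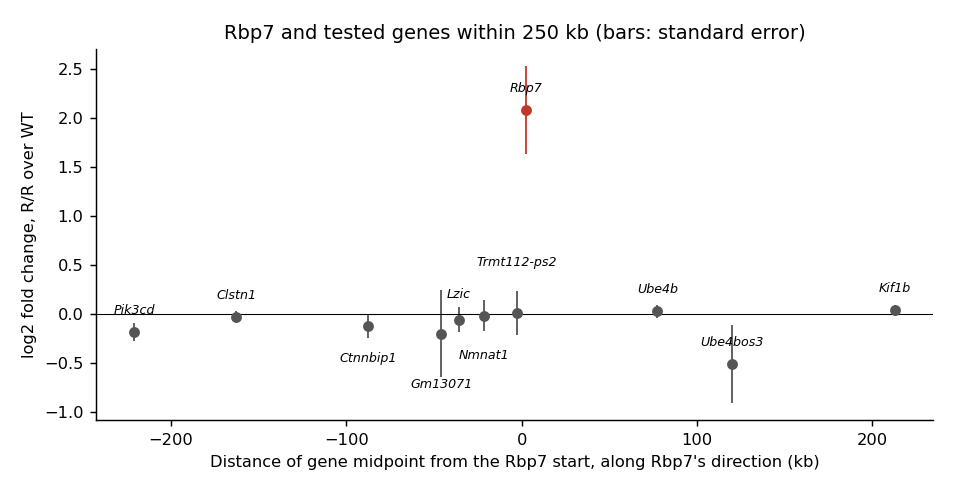
Log2 fold change (R/R over WT, bars are standard errors) of Rbp7 in red and the 10 tested neighbouring genes in grey, against the distance of each gene's midpoint from the start of Rbp7 in kilobases. Rbp7 stands at 2.08, and the neighbours lie between -0.51 and 0.04.

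The 5 genes whose log2 CPM followed Rbp7 most closely over the 6 lungs, of 14196 compared, were Slc7a6os (Pearson r = 0.991), Plekha4 (r = 0.989), St3gal4 (r = 0.982), Stk32a (r = 0.979) and Eml5 (r = 0.979). These are the highest of many correlations over 6 points that share the same libraries, and are given as a description only.

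Crabp1 encodes a retinoic acid carrier of the cell interior. Its level was 0.388, 0.597 and 0.412 CPM in R/R lungs 1, 2 and 3, and 2.49, 3.69 and 2.16 CPM in WT lungs 1, 2 and 3. All 3 R/R lungs were below all 3 WT lungs, at 7, 10 and 7 read pairs against 41, 67 and 37. The log2 fold change was -2.57 ± 0.35, with a mean 5.97 times as high in WT lungs. The call held when each of the 6 lungs was left out in turn, with log2 fold changes between -2.78 and -2.31. It also held under all 8 alternative settings.

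The promoters of Rbp7 and Crabp1 were read from RefSeq (GRCm38.p6) because these 2 genes carried the differences. They were searched on both strands for the hexamer AGGTCA and its variants (the hexamer AGTTCA, the hexamer GGGTCA and the hexamer GGTTCA), the core of elements that bind retinoic acid receptors, and for direct repeats of them spaced by 1, 2 or 5 bases. Sequence upstream of the start of both annotations is shown, in which neither gene held a hexamer. The sites of Rarb and of Cyp26a1, textbook genes of such an element, are shown for contrast, with the hexamers of each repeat in capitals.
Rbp7 promoter, chr4:149454979-149455218, minus strand: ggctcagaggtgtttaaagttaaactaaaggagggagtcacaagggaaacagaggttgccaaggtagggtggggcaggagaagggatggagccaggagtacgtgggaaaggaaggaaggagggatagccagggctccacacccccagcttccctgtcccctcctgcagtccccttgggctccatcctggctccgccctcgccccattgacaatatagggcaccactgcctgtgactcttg
Crabp1 promoter, chr9:54764498-54764747, plus strand: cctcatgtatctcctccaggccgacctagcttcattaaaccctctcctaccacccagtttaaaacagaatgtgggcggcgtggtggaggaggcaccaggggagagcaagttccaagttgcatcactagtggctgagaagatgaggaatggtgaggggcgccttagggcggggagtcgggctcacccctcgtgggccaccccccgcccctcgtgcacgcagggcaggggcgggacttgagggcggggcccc
Rarb site, chr14:16575507-16575535, minus strand: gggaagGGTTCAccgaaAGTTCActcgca
Cyp26a1 site, chr19:37697770-37697798, plus strand, hexamers on the opposite strand: taaagaTGAACTttgggTGAACTaatttg

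Both repeats have a spacing of 5 bases. A repeat of any of the 3 spacings was found in 193 of 32851 RefSeq promoter windows of 300 bases (0.588%), and 1 with a spacing of 5 in 32 of them (0.0974%). At least 1 hexamer was found in 43.7%. Of the 16 promoter windows of the 9 genes, 1 held a repeat, that of Rarb, and 4 held a hexamer. No match says only that these letters are not in the window.

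Rbp4, the plasma carrier of retinol, stood at 9.97, 14.1 and 15.5 CPM in the R/R group, against 11.6, 12.0 and 13.9 CPM in WT. The groups overlapped, and the lowest and the highest lung were both R/R (log2 fold change 0.07 ± 0.16, not called). Liver transcripts were near 0 in these lungs. Ttr, which carries RBP4 in plasma, had no read pair in 5 lungs and 0.0551 CPM in WT 2, and albumin (Alb) stood at 0.235 to 1.43 CPM. Stra6, the membrane receptor for RBP4, had 2, 11 and 3 read pairs in R/R lungs and 6, 5 and 7 in WT lungs, too few for the filter, so no difference was measurable at this depth.

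Next came the enzymes that make retinoic acid. Aldh1a1, a retinal dehydrogenase, stood at 705, 895 and 751 CPM in R/R lungs 1, 2 and 3 and at 669, 573 and 687 CPM in WT lungs 1, 2 and 3. The R/R lungs were above the WT lungs by a narrow margin, and the log2 fold change was 0.29 ± 0.10, which was not called. DESeq2 (541 genes called in all) and the fit without a filter (1109) called it. Its close relative Aldh1a7 shared no stretch of 150 bases with it and stood at 83.3 to 111 CPM in the R/R group, against 81.8 to 110 CPM in WT (0.10 ± 0.12, adjusted p = 0.779 by edgeR's quasi-likelihood test). Aldh1a3, the third enzyme of the family, was low and not called (0.80 ± 0.32, adjusted p = 0.288 by the same test), at 1.27, 1.43 and 1.35 CPM in the R/R group, against 1.03, 0.661 and 0.643 CPM in WT.

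Aldh1a2, a retinal dehydrogenase known from mesothelium, the cell layer that covers the lung, stood at 20.6, 22.3 and 14.1 CPM in R/R lungs 1, 2 and 3. It stood at 11.1, 10.7 and 15.4 CPM in WT lungs 1, 2 and 3. R/R 1 and R/R 2 were high, while R/R 3 fell below WT 3. The log2 fold change was 0.62 ± 0.18, not called. DESeq2 (541 genes called in all) and the fit without a filter (1109) called it. Without WT 3 it was 0.80 and called. Without both replicates 3, the alternative chosen after seeing the data, it was 0.97 and called.

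The median of the 12 mesothelial genes was high in the lungs where Aldh1a2 was high, but not each of them: Upk1b, a uroplakin, had a negative log2 fold change (-0.50 ± 0.16, adjusted p = 0.174 by edgeR's quasi-likelihood test), and Krt8 and Krt19 were highest in R/R 3. The median deviation of the list from the mean over the 6 lungs was 0.46, 0.49 and -0.07 in R/R lungs 1, 2 and 3, and -0.53, -0.27 and 0.06 in WT lungs 1, 2 and 3 (log2). Their summed level was 496 to 627 CPM in the R/R group, against 405 to 503 CPM in WT. Of the 12 genes, 11 had a positive log2 fold change, with a median of 0.46. Beside 1.75% of all tested genes, 1 of the 12 was called. It was Lrrn4, a leucine-rich repeat membrane gene, which was higher in R/R lungs (1.01 ± 0.16, adjusted p = 0.0124 by edgeR's quasi-likelihood test), a call lost without R/R 2 or WT 1. The members with the most counts were the keratins Krt8 (0.34 ± 0.09, adjusted p = 0.0892) and Krt19 (0.35 ± 0.09, adjusted p = 0.0794), which airway epithelium also expresses. Their part in the Aldh1a2 values was not tested.

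Dhrs3, which reduces retinal back to retinol, stood at 111, 92.8 and 93.0 CPM in the R/R group, against 105, 92.9 and 111 CPM in WT. The groups overlapped and were nearly level (-0.06 ± 0.08). Cyp26b1, which clears retinoic acid, varied most within a group. It stood at 82.2, 13.5 and 24.7 CPM in R/R lungs 1, 2 and 3, and at 124, 47.8 and 69.96 CPM in WT lungs 1, 2 and 3. R/R 1 lay above WT 2 and WT 3, while R/R 2 and R/R 3 were below every WT lung. The log2 fold change was -0.996 ± 0.499, not called. The fit without a filter (1109 genes called in all) and the replicate block (446) called it. Without R/R 1 it was -2.08 and called.

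The other clearance enzymes were close to absent from the counts. Cyp26a1 had 0, 3 and 9 read pairs in R/R lungs and 3, 2 and 1 in WT lungs. Cyp26c1 also fell under the filter.

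Rarb, a retinoic acid receptor whose own gene responds to retinoic acid, stood at 2.49, 3.52 and 3.23 CPM in the R/R group, against 1.82, 2.81 and 3.68 CPM in WT. The groups overlapped, and the highest and the lowest lung were both WT (0.15 ± 0.27, not called). Of its exon bases 38.4% overlap exons of Gm48162 and Top2b on the opposite strand, where counting without strand drops reads, so its level is uncertain. The other 5 receptor genes were not called by edgeR's quasi-likelihood test. Their fold changes were all negative, from -0.98 for Rxrg (± 0.48, adjusted p = 0.383), at 0.222 to 1.46 CPM over the 6 lungs, to -0.02 for Rxra. Rarg was the highest of them per length, at 107 TPM (CPM scaled by gene length) in WT lungs (-0.06 ± 0.08, adjusted p = 0.798).

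Among 16 tested genes that respond to retinoic acid, none was called by edgeR's quasi-likelihood test. A total of 6 had a positive and 10 a negative log2 fold change, with a median of -0.05. Of the 16, 2 had an unadjusted p under 0.05, as had 2433 of all 17120 tested genes. The members with the most counts were Tgm2, a transglutaminase (-0.02 ± 0.07, adjusted p = 0.921), and Hoxa5, a patterning factor of lung mesenchyme (-0.01 ± 0.07, adjusted p = 0.981).

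Beyond the 9 genes, 41 other genes of the pathway were listed and 26 were tested. Of these, 13 had a positive and 13 a negative log2 fold change, with a median of -0.01. A single one was called, in the lower direction, in which 1.1% of all tested genes were called. The called gene was Lrat, which esterifies retinol for storage and is known from lipid-storing fibroblasts. Lrat stood at 78.2, 69.4 and 46.1 CPM in R/R lungs 1, 2 and 3, and at 120, 120 and 111 CPM in WT lungs 1, 2 and 3. The R/R lungs lay entirely below the WT lungs, as for 9.47% of tested genes. R/R 3 was the lowest (-0.86 ± 0.14, adjusted p = 0.0158 by edgeR's quasi-likelihood test). The call was lost without R/R 2 (-0.91, adjusted p = 0.0640) and without WT 1 (-0.84, adjusted p = 0.0610), and it held under all 8 alternative settings.

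Lrat is 1 of the 13 genes on the list of alveolar fibroblasts and lipofibroblasts, of which 3 were called, all in the lower direction. Of all tested genes, 1.1% were called in that direction. The median over the list was -0.14, with 4 positive and 9 negative log2 fold changes. The other two were Mfap4, a microfibril protein (-1.44 ± 0.16, adjusted p = 0.00193), and Slc7a10, an amino acid transporter (-0.56 ± 0.11, adjusted p = 0.0331), both by edgeR's quasi-likelihood test. The call of Mfap4 held without each lung in turn, and that of Slc7a10 was lost without R/R 1, R/R 2, WT 1 or WT 2. The summed level of the list was 5163 to 6350 CPM in the R/R group, against 6681 to 7638 CPM in WT. Most of this gap lay in Mfap4 (means of 468 CPM in R/R and 1267 CPM in WT) and Npnt (1218 and 1605 CPM). Tcf21 (-0.01 ± 0.13), Pdgfra (-0.09 ± 0.11) and Fgf10 (0.04 ± 0.10) were near level. The members with the most counts were Inmt, a methyltransferase (0.08 ± 0.14, adjusted p = 0.847), and Npnt, a matrix protein (-0.40 ± 0.09, adjusted p = 0.0575), neither called. The part of these cells in the Lrat values was not tested.

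The remaining pathway genes with large fold changes were Stra6l, a relative of Stra6 (-0.65 ± 0.43, adjusted p = 0.551), and Rdh5, a retinol dehydrogenase (-0.46 ± 0.20, adjusted p = 0.320), neither called by edgeR's quasi-likelihood test. Rdh5 shares 25.6% of its exon bases and 11.4% of its 150-base stretches with its neighbour Bloc1s1, which makes its level uncertain. Of the 12 tested oxidoreductases of retinol and retinal, none was called, and Adh1, an alcohol dehydrogenase, was the highest per length (127 TPM in WT lungs, 0.02 ± 0.07). Of the other carriers, Fabp5, which binds fatty acids and retinoic acid, was the highest (64.8 TPM, -0.07 ± 0.10).

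**Figure D4:**
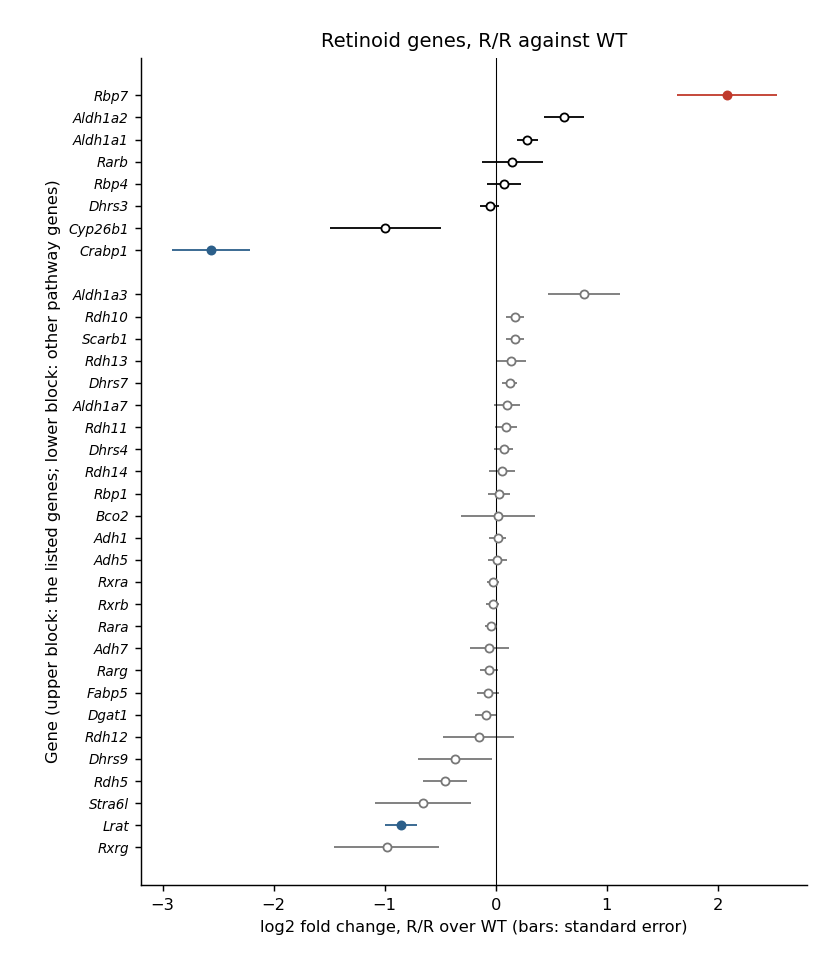
Log2 fold change (R/R over WT, bars are standard errors) of the 8 tested genes of the set in the upper block and of the 26 other tested pathway genes in the lower block. Filled symbols mark called genes, red for higher and blue for lower in R/R lungs: Rbp7 at 2.08, Crabp1 at -2.57 and Lrat at -0.86.

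Between genes, levels were compared per length, as TPM. In WT lungs the order was Aldh1a1 (447 ± 37.7), Dhrs3 (121 ± 8.78), Cyp26b1 (51.9 ± 26.01), Rbp4 (31.9 ± 2.27), Aldh1a2 (18.7 ± 3.40), Crabp1 (12.0 ± 3.65), Rbp7 (5.30 ± 1.21), Rarb (1.80 ± 0.564) and Stra6 (0.206 ± 0.0364), as mean ± SD in TPM. Cyp26b1 ranged from 31.1 to 81.1 TPM and so was not separated from Rbp4, at 30.3 to 34.5 TPM. The lowest Rbp4 lung was above the highest Aldh1a2 lung (22.6 TPM), and the lowest Aldh1a2 lung (16.4 TPM) was only just above the highest Crabp1 lung (16.03 TPM). The other neighbours in the order did not overlap. In R/R lungs Rbp7 averaged 21.8 ± 15.6 TPM and Crabp1 1.92 ± 0.427 TPM, so that every R/R lung held more Rbp7 than Crabp1 and every WT lung held less.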

How the data were processed

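Lung tissue RNA of 6 mice was sequenced as read pairs of 150 bases. The authors used HISAT2 2.1.0 for alignment (mm10, GRCm38). The deposited table holds raw counts per gene, from featureCounts 2.0.1 (GENCODE M25) without strand and without pairs that map to several places or overlap several genes. All 6 deposited columns hold whole counts, although 1 was recorded here under another unit because its heading was misread. The gene length in the same table served for TPM. The labels and the study's methods differ on the RNA extraction kit. The methods also name stranded sequencing and another featureCounts version than the table, and edgeR where the labels name DESeq2. Symbols came from GENCODE M21, of the same build.

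Counts were normalised with TMM and fitted with edgeR 4.0.16 (quasi-likelihood, R 4.3.3) over the genes kept by filterByExpr (count minimum 10, total 15), with Benjamini-Hochberg adjustment over all 17120 genes and a threshold of 0.05. Library totals of 16501092 to 18141067 pairs put 3 counts at 0.165 to 0.182 CPM. Replicates of a group differed beyond counting noise (chi-square per degree of freedom 3.98 to 6.10). DESeq2 1.42.0, limma-voom 3.58.1, other scalings and filters, a replicate block and leaving out each lung were alternatives. Of the gene lists, 246 of 247 symbols matched.

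The members and lists were chosen with earlier results of these data known. Named genes were the 9 members; of other pathway genes those called, the highest per length in each role and the 5 largest fold changes; of other lists called genes and, for 6 lists close to the members, the 2 with most counts (narrower than the rule, which had them for every list); genes near Rbp7; and the 5 genes most like Rbp7.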

Additional observations from a re-analysis of the deposited data

How the results depend on the processing

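The 300 genes called in all became 541 with DESeq2, 1109 with no filter beyond 1 count, 65 to 621 when 1 lung was left out, and 575 without both replicates 3, an alternative chosen after seeing the data. Of the retinoid genes, 2 were called, against 4 with DESeq2, 1 with limma-voom (Crabp1), 5 with no filter and 1 to 3 when 1 lung was left out. For the other pathway genes, 1 called became 0 to 1 when 1 lung was left out. The 11 called genes on the other lists became 26 with DESeq2, 59 with no filter, 23 with the replicate block, 2 to 37 when 1 lung was left out and 43 without both replicates 3. For Lrat, edgeR's quasi-likelihood test gave an adjusted p of 0.0158 with the filter and 4.13e-28 without it. The log2 fold changes were nearly equal, at -0.86 and -0.85, so calls made without a filter are a description only. Ranked by CPM without length, 5 of the 9 genes changed place. No called value reversed its sign. Of 449 refitted values of single retinoid genes and medians, 439 were counted as unchanged. That count includes the median over all tested genes, which was entered as unchanged in every refit without a comparison. Lrat was judged by its call, the other genes and the lists by a move smaller than their spread. Rbp7 thus counts as unchanged in several fits that lost its call, and the 439 measures no robustness of calls. The causes were not tested.

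The replicate numbers are not stated to pair the lungs, and whether they do is not known. Deviations of same-numbered lungs correlated weakly, at 0.0158, 0.0118 and 0.0217. Each lung nevertheless correlated best with its own number, a hint from the data and not from the design. With the replicate number as a block, 446 genes were called in all, and Cyp26b1 joined Rbp7 and Crabp1.

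With 3 lungs a group, and counts of 7 to 145 read pairs for Rbp7 and Crabp1, values cover these animals only.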

Other observations

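Of the remaining lists, alveolar macrophage genes included 2 of 10 tested that were higher in R/R lungs by edgeR's quasi-likelihood test, the lectins Chil3 (0.68 ± 0.12, adjusted p = 0.0233) and Mrc1 (0.42 ± 0.09, adjusted p = 0.0486). Of 13 arterial and venous genes, Gja4, a gap junction gene, was lower (-0.41 ± 0.08, adjusted p = 0.0302) and Dll4, a Notch ligand, was higher (0.39 ± 0.07, adjusted p = 0.0297). Of all tested genes, 0.648% were called higher and 1.1% lower. When 1 lung was left out, the calls of Chil3 and Mrc1 held only without WT 3, with Mrc1 called under 5 of the 8 alternative settings, that of Gja4 only without R/R 1 or WT 3, and that of Dll4 only without R/R 2 or WT 3. All 8 tested cardiac muscle genes had negative log2 fold changes (median -1.20, 5 with an unadjusted p under 0.05), with summed levels of 69.4 to 134 CPM in the R/R group against 95.3 to 280 CPM in WT, so the groups overlapped. All 8 alveolar type 2 genes had positive ones (median 0.15, 3 with an unadjusted p under 0.05), at 24935 to 26311 CPM against 19663 to 24542 CPM. The part of these tissues in the retinoid values was not tested. Over all genes, 2433 of the 17120 tested had an unadjusted p under 0.05. By edgeR's quasi-likelihood test none was called among 10 tested genes of adventitial fibroblasts, 8 of smooth muscle, 8 of alveolar type 2 cells, 8 of airway, 8 of cardiac muscle, 4 of skeletal muscle, 2 of thymus, 1 of squamous epithelium and 2 of liver.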
